A study of Mus musculus with 6 samples.

Results

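Collagens and associated matrix genes were followed in the hearts of mice that overexpress the prokineticin receptor PKR1 in cardiomyocytes. The members were all probes named for a collagen chain, together with those of fibronectin (Fn1), periostin (Postn), Sparc, decorin (Dcn), lumican (Lum), biglycan (Bgn), fibrillin-1 (Fbn1), elastin (Eln), Timp1, Timp3 and lysyl oxidase (Lox). They were chosen by gene name and came to 100 of the 41174 probes on the array, for 51 of the 27745 names that the array files give. RNA came from the hearts of 3 wild-type (WT) and 3 TG-PKR1 male mice, all 12 weeks old, on a C57BL6/J background. In TG-PKR1 mice the transgene is driven by the alpha myosin heavy chain promoter, so it acts in cardiomyocytes, whereas most matrix genes are expressed by other cells of the heart. Each heart was hybridized to 1 Agilent array in 1 colour. The labels give 1 sample per heart and no litter, day or pairing, and the numbers in their titles follow the slide and position of the array. In bulk heart RNA, fewer cells of a type and less RNA per cell cannot be told apart.

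Collagens are built from 3 alpha chains wound into a triple helix. The fibrillar types give the heart its tensile network, mainly types I and III, with type V at the fibril core. Type IV collagen forms the sheet-like network of the basement membrane around cardiomyocytes and vessels. Fibronectin, periostin, small leucine-rich proteoglycans and elastic fibre proteins connect these networks with cells. Timp proteins inhibit the metalloproteinases that degrade them. In the adult heart, fibroblasts are the main source of interstitial collagen, and pericytes and endothelial cells contribute basement membrane.

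Values are log2 of the median spot signal after loess normalization, for the probes with the highest signal, and n is 3 hearts per group throughout. A probe's brightness depends on its sequence, so levels are compared between hearts and not between genes. Of the 100 member probes, 53 were among the 20000 probes tested, and they covered 38 of the 51 genes. The other 47 probes were too dim to be tested, and 27 of them were well above background on none of the 6 arrays. The genes with no tested probe were the fibrillar collagens Col11a1, Col24a1 and Col27a1, the matrix gene Lox, and Col9a1, Col9a3, Col10a1, Col12a1, Col17a1, Col19a1, Col20a1, Col25a1 and Col28a1. No member probe was saturated on any array. Of the tested probes, 51 were well above background on all 6 arrays.

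All 6 file headers carry the mark of an extended-range scan, but the saturation value they give is 559351 to 569418 for WT heart 1 and TG-PKR1 hearts 2 and 3 and 65265 or 65266 for the remaining 3 arrays. By that value the arrays are called extended-range and single-scan here, a split that no label states. Of the 32 probes described below as named members, 19 had differences of opposite sign in the extended-range and the single-scan arrays, which hold 1 heart of one group against 2 of the other. The number of member probes well above background was 53 to 63 on the WT arrays and 56 to 68 on the TG-PKR1 arrays. The 6 arrays lay on 5 slides, and 1 slide held WT heart 2 and TG-PKR1 heart 1. By the headers, WT heart 1 and TG-PKR1 heart 1 lay at array position 4 of their slides, WT heart 2 and TG-PKR1 hearts 2 and 3 at position 3, and WT heart 3 alone at position 2. Across the 53 tested member probes, the deviations from the group mean correlated at 0.65 between the position 4 hearts, at 0.66 between WT heart 2 and TG-PKR1 heart 2, at -0.51 between WT heart 2 and TG-PKR1 heart 3 and, with no position in common, at 0.31 between WT heart 3 and TG-PKR1 heart 3. Within the extended-range arrays, WT heart 1 gave -0.64 with TG-PKR1 heart 2 and 0.26 with TG-PKR1 heart 3. Within the single-scan arrays, TG-PKR1 heart 1 gave -0.43 with WT heart 2, on the same slide, and -0.19 with WT heart 3. The probes come from the same arrays and are not independent, and heart numbers are accession order and pair no hearts. The probe for Prokr1, the gene of PKR1, was well above background on 0 of 6 arrays, so the genotype could not be checked from the arrays. All 15 probes for 9 cardiomyocyte markers were well above background on all 6 arrays. All 15 had a higher mean in the TG-PKR1 group, with a median of 0.09 and 0 calls. When loess was replaced by 75th percentile scaling, 14 did, with a median of 0.31.

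No collagen or matrix probe differed between TG-PKR1 and WT hearts by limma at an adjusted p under 0.05. The smallest adjusted p was 0.800, for Col2a1. Over all 20000 probes, limma called 0.095% lower and 0% higher in TG-PKR1 hearts, and SAM, a permutation-based test, called 54 probes lower, none of them a member. At an unadjusted p under 0.05, 2 member probes were lower (Col2a1 and Col5a3) and 0 higher, beside 1.66% and 0.715% of all tested probes. The 3 TG-PKR1 hearts lay entirely above or below the 3 WT hearts for 5 of the 53 probes (9.43%), compared with 5.41% of all probes that had a value on every array. Col2a1 and Col5a3 were the 2 lower ones, beside 2.73% of all probes, and Timp3, Col4a3 and 1 probe of Col22a1 were the 3 higher ones, beside 2.68%. With 3 hearts against 3, the smallest p of an exact two-sided permutation test is 0.1, and all 5 reached it.

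The differences were small for most members, as they were for most of all tested probes. The log2 difference, TG-PKR1 minus WT, ranged from -0.75 to 0.37 with a median of -0.05, beside a median of 0.03 over all tested probes. It was below 0 for 33 of the 53 probes (62.3%), whereas 41.8% of all tested probes had a lower and 58.2% a higher mean in the TG-PKR1 group. When loess was replaced by 75th percentile scaling, 40 of 54 member probes (74.1%) had a lower mean, and so did 52.4% of all tested probes. For 51 of the 53 probes the difference was under 0.5 in size, beside 19497 of all 20000 tested probes. The median size of the difference was 0.14 for the members and 0.10 for all tested probes. The 95% confidence interval lay within 1 log2 unit on either side of 0 for 50 probes, and its median half-width was 0.44. Over all 20000 tested probes these values were 18858 and 0.42. For 27 of the 38 genes, the difference of the brightest probe was smaller than the SD between hearts of a group.

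**Figure D1:**
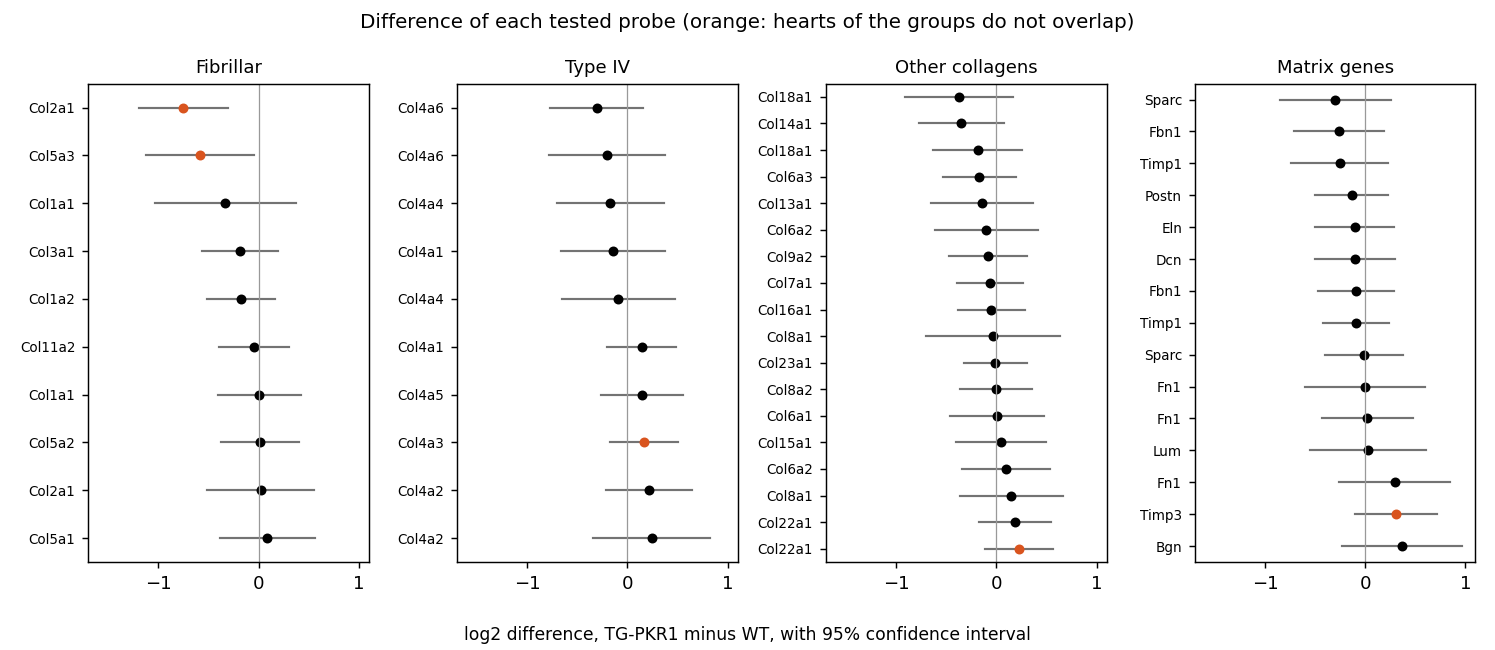
Log2 difference, TG-PKR1 minus WT, for each of the 53 tested probes with its 95% confidence interval, by subgroup, with 1 point per probe, so that a gene with several probes appears several times. The interval excludes 0 for 1 probe of Col2a1 and for Col5a3, and the 5 orange points mark probes whose hearts do not overlap between groups.

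Among the fibrillar collagens, 6 of the 8 genes tested had a lower mean in the TG-PKR1 group and 2 a higher one, with limma calling none in either direction. The median over the 10 probes was -0.11. Col2a1, the chain of cartilage type II collagen, had the largest difference of any member. Its signal was 9.44, 9.46 and 9.62 in WT hearts 1, 2 and 3 and 9.04, 8.85 and 8.38 in TG-PKR1 hearts 1, 2 and 3. All 3 TG-PKR1 hearts lay below the lowest WT heart, and TG-PKR1 heart 3 was the lowest. The log2 difference was -0.75 (SE 0.19, 95% confidence interval -1.19 to -0.31), or a level of 0.595 of WT, with an adjusted p of 0.800 in limma. Within the extended-range arrays the difference was -0.82, and within the single-scan arrays it was -0.50. It was -0.40 within array position 4 and -0.84 within position 3.

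A second probe of Col2a1 did not show this. On mm8, the build of the array files, the first probe lies on the minus strand at chr15:97804088-97804147 and the second at chr15:97804108-97804167, so that the probes share 40 of their 60 bases. The second probe read 6.997, 7.11 and 6.51 in WT hearts and 6.95, 7.23 and 6.50 in TG-PKR1 hearts, with the groups interleaved. Its log2 difference was 0.02 (95% confidence interval -0.51 to 0.55). The first probe was printed as 10 spots on each array and the second as 1. Another probe, upstream in the gene at chr15:97829119-97829178, was well above background on 0 of 6 arrays. Of 6 marker genes of cartilage and valve cells, 3 were tested, with a median difference of -0.01 over 4 probes and 0 limma calls. The tested Sox9 probes gave -0.14 and -0.06, Comp 0.04 and Chad 0.07.

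Col5a3, a minor type V chain, was the other fibrillar gene whose groups did not overlap. WT hearts read 9.33, 9.17 and 10.07, and TG-PKR1 hearts 8.80, 8.99 and 9.02. WT heart 3 stood well above the rest. The log2 difference was -0.59 (SE 0.24, 95% confidence interval -1.13 to -0.04), and it was -0.31 without WT heart 3. It was -0.53 within array position 4 and -0.16 within position 3. The probe lies on mm8 at chr9:20520550-20520609 on the minus strand. The window around its gene start is shown because Col5a3 and Timp3, described further on, are non-overlapping members with a RefSeq promoter and opposite directions. In RefSeq for GRCm38.p6 it is chr9:20815018-20815317 on the minus strand, from 250 bases before the start to 50 after, and capitals mark GGGCGG (a GC box) and CCAAT on either strand.
Col5a3: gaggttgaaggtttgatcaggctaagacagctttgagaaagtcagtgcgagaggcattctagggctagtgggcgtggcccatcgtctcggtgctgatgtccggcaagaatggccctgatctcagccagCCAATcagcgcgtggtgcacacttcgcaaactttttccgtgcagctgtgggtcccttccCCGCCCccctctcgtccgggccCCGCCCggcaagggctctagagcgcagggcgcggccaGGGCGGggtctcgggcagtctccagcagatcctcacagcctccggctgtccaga
The window holds 3 GC boxes and 1 CCAAT, and none of the matches overlap. Over all 32851 RefSeq promoter windows of this length, 35.7% hold GGGCGG and 37.4% hold CCAAT on at least 1 strand. Of the 42 windows found for 38 member genes, 24 hold GGGCGG (57.1%), 14 hold CCAAT (33.3%) and 6 hold TATAAA (14.3%), which 13.6% of all windows hold.

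The chains of the main cardiac collagens, types I and III, had means below WT on their brightest probes, each by less than 0.35 log2 units. Col1a2, the alpha-2 chain of type I, read 12.67, 12.88 and 12.85 in WT hearts and 12.59, 12.54 and 12.76 in TG-PKR1 hearts. The difference was -0.17 (95% confidence interval -0.51 to 0.17), and TG-PKR1 heart 3 lay above WT heart 1. For Col3a1, the single chain of type III, WT hearts read 12.59, 12.57 and 12.75 and TG-PKR1 hearts 12.32, 12.33 and 12.71. TG-PKR1 hearts 1 and 2 were the lowest of the 6, TG-PKR1 heart 3 lay among the WT hearts, and the difference was -0.19 (95% confidence interval -0.56 to 0.19).

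Col1a1, the alpha-1 chain of type I, varied more between hearts of a group than between groups. Its brightest probe, at chr11:94767851-94767910 on the plus strand of mm8, read 11.99, 13.01 and 12.19 in WT hearts and 11.72, 12.56 and 11.91 in TG-PKR1 hearts. Heart 2 was the highest in each group, and the difference of -0.33 had a 95% confidence interval of -1.03 to 0.37. It was -0.02 without WT heart 2 and -0.58 without TG-PKR1 heart 2. With array position as a block, which leaves WT heart 3 out of the comparison, it was -0.56, and limma did not call it. Between the 2 arrays of the shared slide it was -1.29, whereas within the extended-range arrays it was 0.25. A second probe, at chr11:94766828-94766887, read 8.20, 7.76 and 7.89 in WT hearts and 7.98, 7.74 and 8.15 in TG-PKR1 hearts, with a difference of 0.01. On this probe heart 2 was the lowest of each group, the reverse of the brighter one.

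The type V chains that make up most type V collagen did not follow Col5a3. Col5a1 read 10.34, 10.85 and 10.27 in WT and 10.42, 10.87 and 10.44 in TG-PKR1 hearts, a difference of 0.09 (95% confidence interval -0.39 to 0.56). Col5a2 had a difference of 0.02 (-0.38 to 0.41), and Col11a2, a type XI chain, -0.05 (-0.40 to 0.31), and for both genes the groups overlapped. The contrast between Col5a3 and the other type V chains was not tested.

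**Figure D2:**
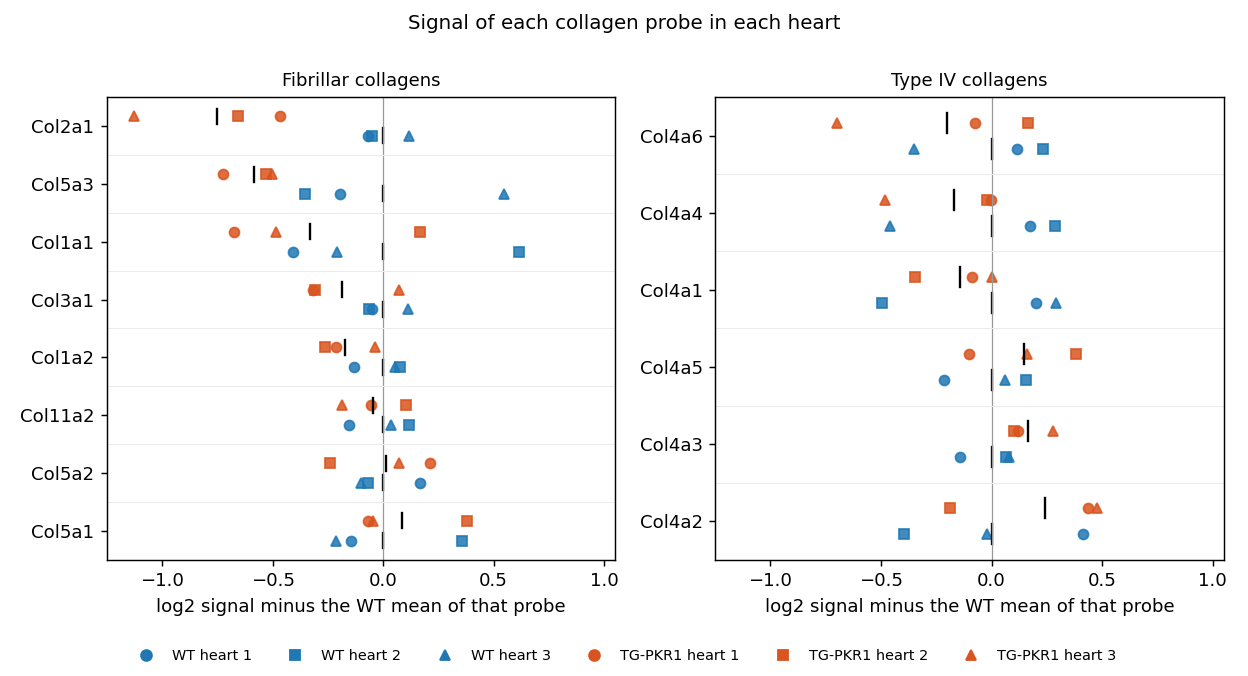
Log2 signal of each fibrillar (left) and type IV (right) collagen in each heart, relative to the WT mean of the same probe, for the brightest probe of each gene. Blue marks are WT and orange marks TG-PKR1 hearts, with 1 symbol per heart number and bars at the group means. Col2a1, Col5a3 and Col4a3 are the genes whose groups do not overlap, and the 3 WT hearts of Col1a1 alone span more than 1 log2 unit.

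Type IV collagen, the scaffold of the basement membrane, had 3 genes with lower and 3 with higher means, and none was called. The median difference over its 10 probes was 0.03. Col4a1 and Col4a2 encode the chains of the ubiquitous type IV network. They lie head to head, and their RefSeq starts on GRCm38.p6 are 21 bases apart on opposite strands of chromosome 8, with Col4a1 on the minus strand. The stretch common to both promoter windows, chr8:11312777-11312854, is printed on the plus strand because the pair shares it, with capitals marking GGGCGG.
Col4a1 and Col4a2: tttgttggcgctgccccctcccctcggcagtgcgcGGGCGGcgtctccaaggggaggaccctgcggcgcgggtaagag
It holds 1 GC box, 7 bases after the Col4a2 start. By these starts, the first bases of Col4a1 and Col4a2 overlap. Col4a5 and Col4a6, on chromosome X, run away from each other without overlap, with RefSeq starts 1343 bases apart.

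No probe of the head-to-head pair was called, and a difference shared by the pair was not tested. Both Col4a2 probes and the dimmer Col4a1 probe had a higher mean in the TG-PKR1 group, and the brighter Col4a1 probe a lower one. Col4a2 read 11.67, 10.86 and 11.23 in WT hearts and 11.69, 11.06 and 11.73 in TG-PKR1 hearts, a difference of 0.24 (95% confidence interval -0.34 to 0.83). Its second probe gave 0.22, and heart 2 was the lowest of each group on the first. Within the single-scan arrays the Col4a2 difference was 0.64, and within the extended-range arrays it was -0.27.

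For Col4a1 the probes of the gene differed in sign. The brighter one read 11.07, 10.37 and 11.16 in WT and 10.77, 10.52 and 10.87 in TG-PKR1 hearts, a difference of -0.14 (95% confidence interval -0.66 to 0.38). The dimmer one gave 0.14 (-0.20 to 0.48). Both intervals include 0, and the groups overlapped on both probes.

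Col4a3, a chain of the specialised network known from glomerulus and lung, was a dim probe whose groups did not overlap. WT hearts read 6.22, 6.43 and 6.45, and TG-PKR1 hearts 6.49, 6.47 and 6.64. The gap between the highest WT and the lowest TG-PKR1 heart was small beside the spread, and the difference was 0.17 (SE 0.15, 95% confidence interval -0.17 to 0.50). Its other probes were not tested.

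The remaining type IV chains overlapped between groups. Col4a4, the partner of Col4a3, had a difference of -0.17 (95% confidence interval -0.70 to 0.36). Col4a5 had 0.15 (-0.27 to 0.56) and Col4a6, whose chains assemble with it in some basement membranes, -0.20 (-0.78 to 0.37). The second probe of Col4a6 gave -0.31 and that of Col4a4 -0.09, each with the sign of the first.

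Of the other collagens, 14 of 23 genes were tested, with a median difference of -0.04 over 18 probes and 0 calls. Type VI collagen forms beaded filaments next to cell surfaces. Col6a1 read 9.20, 8.69 and 9.19 in WT and 9.21, 8.72 and 9.16 in TG-PKR1 hearts. The difference was 0.00 (95% confidence interval -0.47 to 0.47), with heart 2 the lowest in each group. Col6a3 gave -0.17 (-0.54 to 0.20).

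Col6a2 was measured by probes that ordered the hearts differently. The brighter probe read 8.50, 7.85 and 8.11 in WT and 8.41, 7.80 and 7.96 in TG-PKR1 hearts, with heart 1 the highest of each group, and gave -0.10. On the dimmer probe WT hearts read 6.81, 7.33 and 7.26 and TG-PKR1 hearts 7.04, 7.46 and 7.20, so that heart 1 was the lowest of each group, and the difference was 0.10. Both 95% confidence intervals include 0.

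Col18a1 and Col14a1 had the lowest differences among these collagens. Col18a1, the source of the fragment endostatin in vessel basement membranes, read 10.04, 10.67 and 9.73 in WT hearts and 9.69, 9.89 and 9.77 in TG-PKR1 hearts. WT heart 2 was the highest and WT heart 3 lay among the TG-PKR1 hearts. The difference was -0.37 (95% confidence interval -0.91 to 0.17), and without WT heart 2 it was -0.11. Its second probe gave -0.18. Col15a1, the related multiplexin of muscle basement membranes, gave 0.05 (-0.40 to 0.50).

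Col14a1, a fibril-associated collagen, read 8.98, 9.497 and 9.25 in WT hearts and 8.76, 9.13 and 8.79 in TG-PKR1 hearts. TG-PKR1 heart 2 lay above WT heart 1, and the difference was -0.35 (SE 0.19, 95% confidence interval -0.77 to 0.08). It was -0.61 within the single-scan arrays and -0.02 within the extended-range arrays. Col22a1, a fibril-associated collagen of tissue junctions, pointed the other way on both of its probes. The dimmer one read 6.74, 6.76 and 6.67 in WT and 7.01, 7.08 and 6.77 in TG-PKR1 hearts, with no overlap. Its difference was 0.23 (SE 0.15, 95% confidence interval -0.11 to 0.57), and the sign turned to -0.09 when loess was replaced by 75th percentile scaling. The brighter probe gave 0.18 (-0.18 to 0.54) with overlapping groups.

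Of the non-collagen matrix genes, 10 of 11 were tested. The brightest probe had a lower mean in the TG-PKR1 group for 7 genes and a higher one for 3, none was called, and the median over 15 probes was -0.09. Timp3, the matrix-bound inhibitor of metalloproteinases, was the one whose groups did not overlap. WT hearts read 12.81, 12.91 and 12.39 and TG-PKR1 hearts 13.13, 12.91 and 12.99. WT heart 2 and TG-PKR1 heart 2 were equal to the second decimal, with the TG-PKR1 heart marginally higher, so the separation of the groups rests on that small gap. The difference was 0.31 (SE 0.18, 95% confidence interval -0.10 to 0.71), and it was 0.15 without WT heart 3. The probe lies on mm8 at chr10:85778750-85778809 on the plus strand. Its promoter window on GRCm38.p6 is chr10:86300162-86300461 on the plus strand, with GGGCGG on either strand in capitals.
Timp3: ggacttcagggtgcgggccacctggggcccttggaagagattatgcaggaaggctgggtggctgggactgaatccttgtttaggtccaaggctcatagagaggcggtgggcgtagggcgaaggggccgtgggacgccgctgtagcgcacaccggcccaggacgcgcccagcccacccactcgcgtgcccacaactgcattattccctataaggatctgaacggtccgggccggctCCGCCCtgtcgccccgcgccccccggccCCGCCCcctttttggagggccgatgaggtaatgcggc
It holds 2 GC boxes and no CCAAT, against 3 GC boxes and 1 CCAAT in the Col5a3 window.

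Timp1, the inducible inhibitor, lay on the other side of 0. WT hearts read 8.37, 9.04 and 9.04 and TG-PKR1 hearts 8.64, 8.68 and 8.36, and WT heart 1 was nearly as low as the lowest TG-PKR1 heart. The difference was -0.26 (95% confidence interval -0.74 to 0.23), and the second probe gave -0.09.

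Among the small leucine-rich proteoglycans, which bind collagen fibrils, biglycan had the highest difference of any member. Bgn read 8.65, 8.38 and 8.15 in WT and 9.20, 8.20 and 8.90 in TG-PKR1 hearts. TG-PKR1 hearts 1 and 3 were above all WT hearts and TG-PKR1 heart 2 was below WT hearts 1 and 2. The difference was 0.37 (SE 0.26, 95% confidence interval -0.23 to 0.97), and it was 0.93 within the single-scan arrays and -0.10 within the extended-range arrays. Without TG-PKR1 heart 1 it was 0.16 and without TG-PKR1 heart 2 it was 0.65. Decorin gave -0.10 (-0.50 to 0.30). Lumican read 12.07, 12.84 and 12.11 in WT and 12.12, 12.75 and 12.24 in TG-PKR1 hearts, with heart 2 the highest of each group, and its difference was 0.03 (-0.55 to 0.61).

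Matricellular and adhesive glycoproteins overlapped between groups. Sparc, which binds collagen during its assembly, read 12.54, 12.70 and 12.09 in WT and 12.14, 12.55 and 11.74 in TG-PKR1 hearts, a difference of -0.30 (95% confidence interval -0.85 to 0.25). Its second probe gave -0.01. Periostin, a marker of activated fibroblasts, read 10.15, 10.42 and 10.57 in WT and 10.24, 10.21 and 10.29 in TG-PKR1 hearts. The TG-PKR1 hearts lay close together between the WT hearts, and the difference was -0.13 (-0.50 to 0.23).

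Fibronectin, the adhesive protein of provisional matrix, had 3 tested probes with differences of 0.00, 0.29 and 0.02. The brightest read 8.94, 8.23 and 8.08 in WT and 8.59, 8.02 and 8.63 in TG-PKR1 hearts. WT heart 1 was the highest of the 6, and the 95% confidence interval was -0.60 to 0.60. Of the elastic fibre genes, fibrillin-1 gave -0.26 (-0.71 to 0.18) and -0.09 on its probes, and elastin -0.10 (-0.50 to 0.29).

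**Figure D3:**
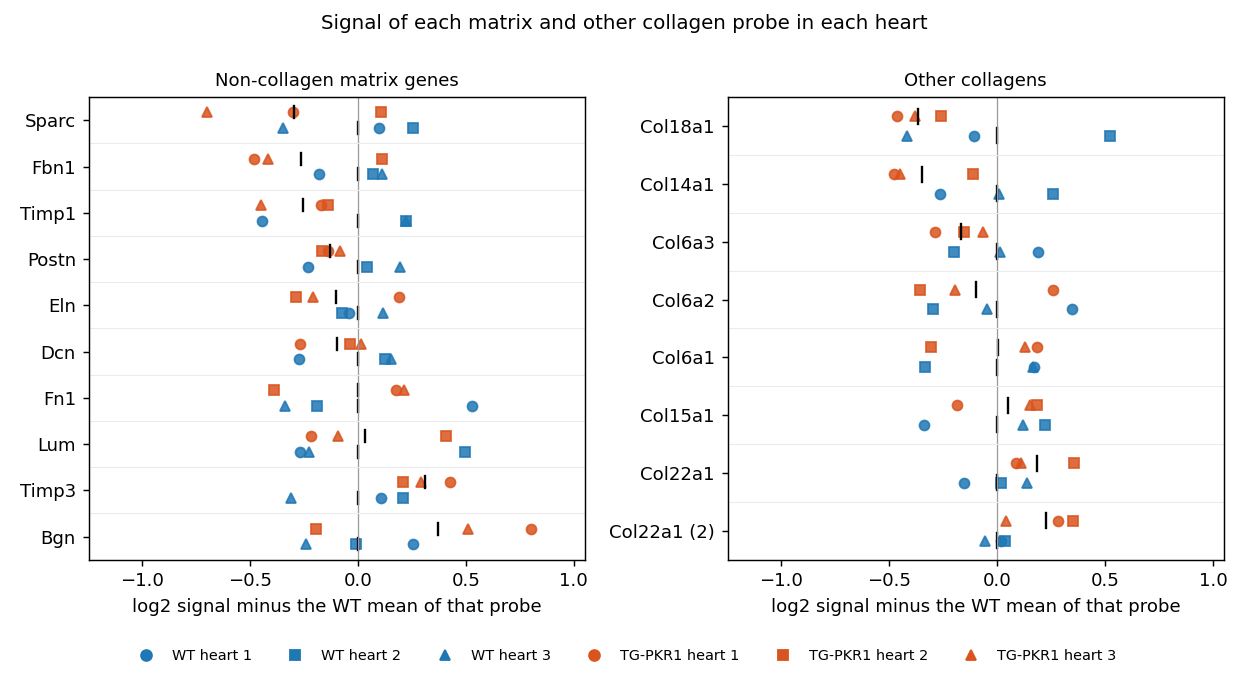
Log2 signal of each non-collagen matrix gene (left) and of the named other collagens (right) in each heart, relative to the WT mean of the same probe. Blue marks are WT and orange marks TG-PKR1 hearts, with bars at the group means, and the label Col22a1 (2) is the dimmer probe of that gene. Only Timp3 and that probe separate the groups, whereas for Lum and Col6a1 heart 2 of both groups stands apart from hearts 1 and 3.

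In all, 14 member genes had more than 1 tested probe. For 6 of them the probes differed in sign, and for 1, Col2a1, they differed by more than 0.5 log2 units.

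**Figure D4:**
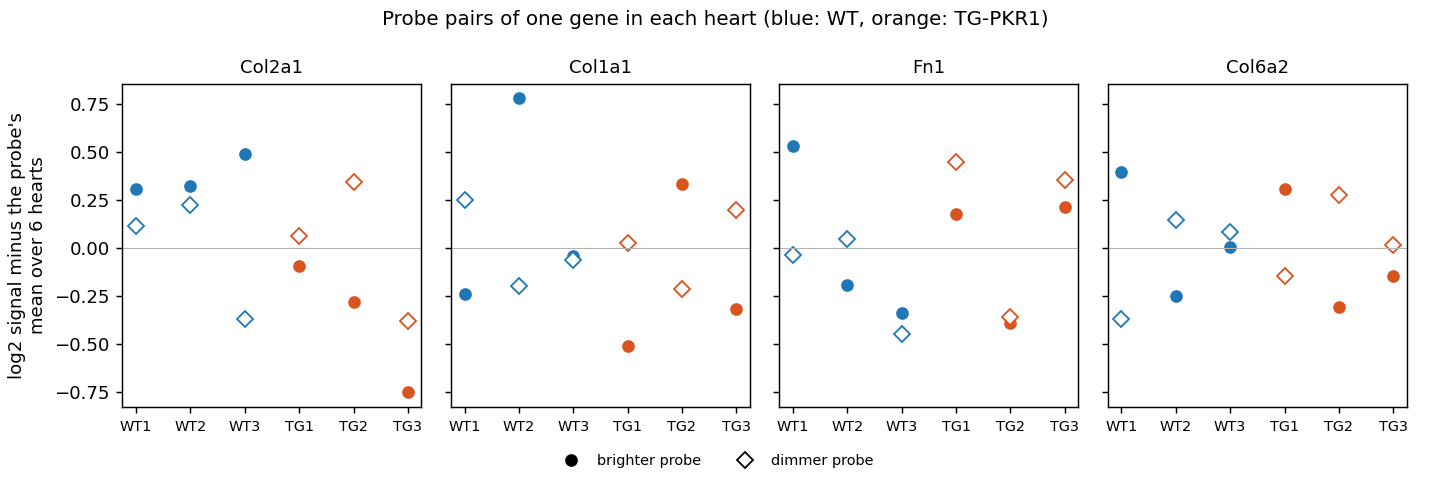
Log2 signal in each heart relative to the probe's own mean over the 6 hearts, for a brighter (filled) and a dimmer (open) probe of Col2a1, Col1a1, Fn1 and Col6a2. The filled Col2a1 points separate WT from TG-PKR1 hearts and the open ones do not, and the Col1a1 and Col6a2 pairs run in opposite directions between hearts.

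The hearts that stood highest or lowest were not those of 1 group. Of the 53 tested probes, WT heart 2 was the highest of the 6 for 14, TG-PKR1 heart 2 for 12 and TG-PKR1 heart 1 for 10. TG-PKR1 hearts 1 and 3 were the lowest for 12 each and WT heart 3 for 10. Relative to the WT mean of each probe, the median over the fibrillar probes was -0.10, 0.01 and -0.01 in WT hearts 1, 2 and 3 and -0.14, -0.22 and -0.11 in TG-PKR1 hearts 1, 2 and 3. These medians did not overlap between groups, but the log2 of the summed fibrillar signal did, at 14.30 to 14.65 in WT and 14.12 to 14.34 in TG-PKR1 hearts. For type IV, other collagens and matrix genes the medians overlapped.

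The genes that process collagen and turn over matrix were read from a list of 77, of which 76 were on the array and 63 were tested with 85 probes. limma called 0 of the 85 probes, and the mean was lower in TG-PKR1 hearts for 27 and higher for 58. At an unadjusted p under 0.05 there was 1, beside 0.715% of all tested probes higher and 1.66% lower. It is the dimmer tested probe of Lama2, the laminin alpha-2 chain that anchors muscle basement membrane. It read 9.12, 9.20 and 8.96 in WT and 9.29, 9.56 and 9.77 in TG-PKR1 hearts, without overlap, a difference of 0.45 (SE 0.17, 95% confidence interval 0.06 to 0.84). The brighter Lama2 probe gave 0.23 (-0.12 to 0.58), and its groups overlapped. All 10 probes for the 5 tested collagen receptor genes had a higher mean in the TG-PKR1 group, with a median of 0.14, beside 58.2% of all tested probes. Itga1 and Itgb1 supply 3 of these probes each, and 6 of the 10 were higher when loess was replaced by 75th percentile scaling and 9 with the mean or processed signal, quantile normalization with or without normexp, or the table of the authors. The brighter probe of the collagen receptor kinase Ddr2 had 0.39 (SE 0.17), and the dimmer one 0.06 (SE 0.26) with overlapping groups. Ctgf, a matricellular target of TGF-beta signalling now named Ccn2, had 0.47 (SE 0.24). Of the 12 probes, of 10 genes, for the hydroxylases and chaperones that fold procollagen, 10 had a higher mean, with a median of 0.11, beside the same 58.2%. The cardiomyocyte markers also had a higher mean, on 15 of 15 probes with 0 called, and their part in these counts was not tested.

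Among the probes of that list with a lower mean, those of Mmp14, Prelp and Smad3 had the smallest p. Mmp14, a membrane-bound collagenase, read 9.69, 10.51 and 10.69 in WT and 9.09, 10.26 and 9.26 in TG-PKR1 hearts. Its difference was -0.76 (SE 0.35, 95% confidence interval -1.56 to 0.05), with TG-PKR1 heart 2 above WT heart 1. Prelp, a proteoglycan of basement membranes, had -0.33 (SE 0.18) without overlap of the hearts, and a dimmer probe of Smad3, a mediator of TGF-beta signalling, -0.31 (SE 0.19). The brighter Smad3 probe gave -0.04 (SE 0.22).

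Markers of cells that could contribute matrix were measured beside these genes. Over 13 probes, cardiac fibroblast markers had a median per heart of 0.02, -0.08 and 0.01 in WT hearts 1, 2 and 3 and 0.12, 0.09 and 0.05 in TG-PKR1 hearts, relative to the WT mean of each probe. These medians did not overlap between groups, 7 of the 13 probes had a higher and 6 a lower mean, and 0 were called. The median difference of the probes was 0.04, but -0.02 with the processed signal and 75th percentile scaling and -0.0067 in the table of the authors. It was 0.095 when loess was replaced by 75th percentile scaling, where 10 of the 13 probes had a higher mean. The log2 of the summed signal overlapped, at 16.75 to 17.81 in WT and 16.98 to 17.46 in TG-PKR1 hearts. Gsn alone made up 79.1% to 87.8% of that sum, and without it the log2 of the sum was 14.49 to 14.77 in WT and 14.51 to 14.66 in TG-PKR1 hearts. Myofibroblast, smooth muscle, endothelial, and epicardial and mesothelial markers overlapped between groups on both measures, with 0 calls. Of the 8 epicardial and mesothelial probes, 7 had a lower mean in the TG-PKR1 group (87.5%), with a median of -0.13, beside 41.8% of all tested probes. The hearts did not overlap for 1 of the 8 (12.5%), Upk1b, beside 5.41% of all probes with a value on every array. Upk1b read 7.53, 7.45 and 7.55 in WT and 7.13, 7.34 and 7.30 in TG-PKR1 hearts, a difference of -0.25. The part of these markers in the values of the members was not tested.

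Adipocyte markers separated the genotypes. The paper had reported lower Pparg, Fabp4, Ucp1, Plin and Adipoq in TG-PKR1 hearts from these same arrays, so the separation was partly known beforehand. Of the 12 adipocyte probes 11 were tested. All 11 were lower in every TG-PKR1 heart than in any WT heart, beside 2.73% of all probes with a value on every array. Of the 11, limma called 4, for Adipoq, Plin, Cidec and Ucp1, beside 0.095% of all tested probes. limma called 0 with 75th percentile scaling, the table of the authors, all probes, the filter on background or scan mode as a block, and 0 without WT heart 1, WT heart 3, TG-PKR1 heart 1 or TG-PKR1 heart 3. The means of all 11 stayed lower in each of these fits. The median difference was -1.43, and the log2 of the summed signal was 17.79 to 18.10 in WT and 16.98 to 17.09 in TG-PKR1 hearts. Fat tissue has a matrix of its own, and the part of these markers in the values of Col2a1, Col5a3 and the other members was not tested.

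**Figure D5:**
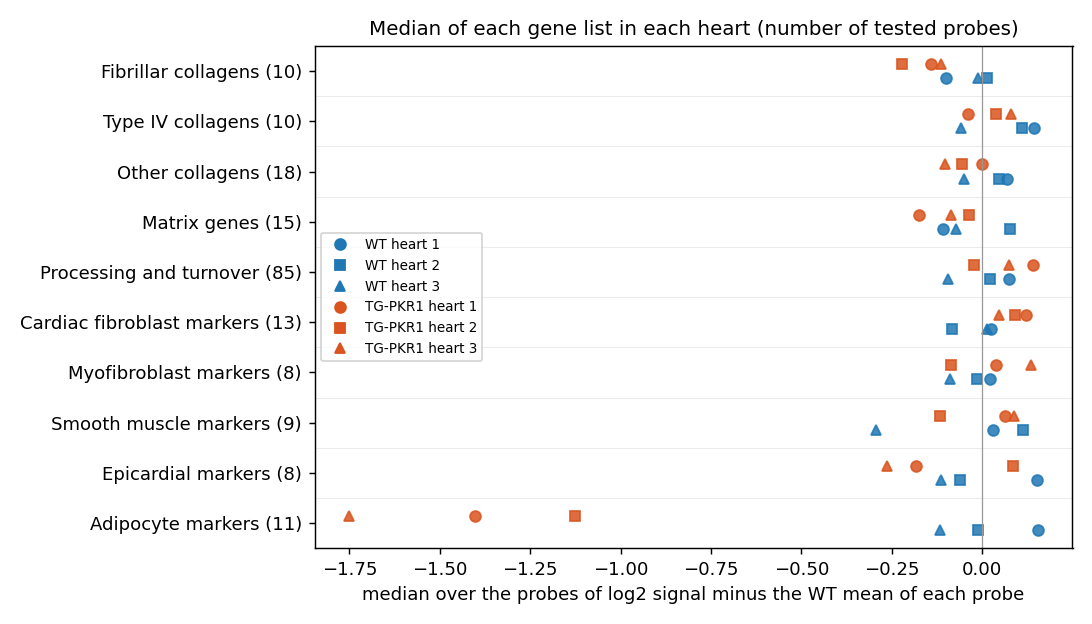
Median per heart over the tested probes of each gene list, as log2 signal relative to the WT mean of each probe, with the number of probes in brackets. Blue marks are WT and orange marks TG-PKR1 hearts. Adipocyte markers lie between -1.75 and -1.13 in TG-PKR1 hearts, whereas the 4 collagen and matrix groups lie between -0.22 and 0.14 in all 6 hearts.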

How the data were processed

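The authors deposited, for each heart, Agilent Feature Extraction 9.5.1.1 scanner files with spot and background intensity, not normalized between arrays, and a table of log2 values that they made by LOWESS fitting to a profile of medians, with replicate probes averaged and dim ones filtered out. Probe positions are those of mm8, and no annotation of that build was used, so exon and UTR context is not given here. The labels give the genotype, and replicate numbers follow the order of accession. Members and gene lists were chosen with earlier results of these data known.

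After removal of control and outlier spots, log2 median signals were fitted by loess (span 0.3, 4 iterations) to the profile of medians across the 6 arrays. Replicate spots were averaged. Testing used the 20000 brightest probes and limma 3.58.1 (R 4.3.3) with Benjamini-Hochberg adjustment, at 0.05. For single values the exact permutation test over hearts, two-sided, was used as well. SAM was run as an alternative. The p-values measure the spread between these hearts, and the number of arrays limits their precision. Symbols matched RefSeq for 100 of 100 member probes, 77 of them by accession.

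The probe with the highest mean stands for a gene. Named were all tested fibrillar, type IV and matrix genes, types VI, XV and XVIII, the 5 probes with the smallest p among other collagens, and members whose hearts did not overlap. Of the processing and turnover list, the 3 smallest p in each direction were named. Promoters came from a RefSeq table of GRCm38.p6, searched on both strands for the GC, CCAAT and TATA boxes spelled out in the results. Alternatives changed 1 choice at a time, except that normexp went with quantile normalization and the processed signal with 75th percentile scaling: signal column, background correction (normexp, offset 50), normalization, probe filter, outlier spots, the table of the authors, eBayes settings, scan mode, threshold (0.1), probes averaged per gene and left-out hearts. Loess on the profile itself, the shared slide and array position were added after seeing the data. The procedure was tested on simulated data for 19955 probes, with 50 probes given each true log2 difference of -2, -1, 1 and 2. With the right sign it called 18 of 50 at -1 and 26 of 50 at 1. It called 43 of 50 at -2 and 44 of 50 at 2, and 6 probes given no difference. Differences below 1 in size, which all tested member probes had, were not tested in this way.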

Additional observations from a re-analysis of the deposited data

How the results depend on the processing

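No member probe was called under any alternative, and neither was any probe of the processing and turnover list, including SAM and a threshold of 0.1. No paired analysis was run, because no label pairs the hearts and replicate numbers here are only accession order. The 1 slide and the 2 array positions with hearts of both groups are given as batches. The slide could not be fitted as a random block, since only 1 slide held more than 1 array. Signal over background limits the dim probes, such as Col4a3 and Col22a1.

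The count of all probes called lower, 19 in the report, was 36 with normexp and quantile normalization, 33 with quantile normalization, 31 with the trend setting, 54 by SAM and 2 with loess on the profile itself. It was 0 with 75th percentile scaling, the table of the authors, all probes, probes above background on 3 or more arrays, and scan mode as a block, and 0 to 19 with each heart left out. The count of member probes whose hearts did not overlap, 5 in the report, was 3 with normexp and quantile normalization, the mean signal or quantile normalization alone, 2 with the processed signal and 75th percentile scaling and 1 with 75th percentile scaling, and it was 7 to 13 with each heart left out, where groups of 2 against 3 part more easily.

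The median over all members moved from -0.05 to -0.10 with 75th percentile scaling, -0.22 within the shared slide and -0.11 within array position 3, and ranged from -0.10 to -0.013 with each heart left out. The fibrillar median, -0.11, was -0.0097 with all probes, -0.043 with the filter on background, -0.17 with probes averaged per gene, -0.21 within the single-scan arrays, -0.27 within the slide and -0.18 within position 3. The type IV median, 0.03, was 0.14 with the filter on background, -0.11 within the extended-range arrays, -0.10 within the slide and 0.12 within position 3. The median of the other collagens, -0.04, was -0.14 with 75th percentile scaling, -0.12 within the extended-range and 0.020 within the single-scan arrays, and -0.10 to -0.0030 with each heart left out. The matrix median, -0.09, was 0.034 within the extended-range arrays, -0.26 within the single-scan arrays, -0.22 within the slide and 0.051 within position 4. With each heart left out, the fibrillar median was -0.17 to -0.056 and the matrix median -0.12 to -0.012. The type IV median then crossed 0, at -0.0075 to 0.078. The cause of these moves was not tested.

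Some differences changed sign. Among the 32 probes of named members, 10 did within the extended-range arrays, where Timp1 was 0.15, Col1a1 0.25, Postn 0.11, Fbn1 0.026 and Bgn -0.097, and 9 within the single-scan arrays, where Eln was 0.17. With array position as a block Col4a1 was 0.059, Col5a1 -0.078 and Lum -0.17. With loess replaced by 75th percentile scaling Col4a5 was -0.0017, Col22a1 -0.038 and -0.085 on its probes, Col5a2 -0.062 and Dcn 0.12. With the processed signal and 75th percentile scaling Col5a1 was -0.014, Lum -0.028, Col15a1 -0.043, Col6a2 0.011 and Fn1 0.033. Fn1 was 0.0072 with the mean signal, 0.0013 with normexp and quantile normalization and 0.031 with outlier spots kept. Col15a1 was -0.014 with quantile normalization, Col6a1 was -0.014 with loess on the profile itself, and in the table of the authors Col6a1 was -0.04 and Col5a2 -0.077. With each heart left out, 29 of the 32 moved by over 1.5 times or crossed 0. The ranges that crossed 0 were -0.39 to 0.00099 for Col4a1, -0.39 to 0.045 for Col4a6, -0.12 to 0.024 for Col11a2, -0.058 to 0.27 for Col5a1 and -0.084 to 0.14 for Col5a2. They were -0.17 to 0.26 for Fn1, -0.16 to 0.28 for Lum, -0.12 to 0.17 for Col15a1, -0.16 to 0.16 for Col6a1 and -0.28 to 0.074 for Col6a2. Col2a1 kept its sign, at -0.89 to -0.56 over the fits across all probes, with an adjusted p of 0.593 to 1.0, and at -0.82, -0.50, -0.42, -0.40 and -0.84 within the extended-range arrays, the single-scan arrays, the slide, and array positions 4 and 3.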
